A study of Homo sapiens with 12 samples.

Results

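ATF4 and 9 of its stress-response targets, ATF5, DDIT3, TRIB3, ASNS, CHAC1, PPP1R15A, CEBPB, CEBPG and SLC7A5, were followed by RNA-sequencing in human embryonic stem cells (hESCs) with and without UBQLN1. The 10 genes were chosen by name, and all 10 were among the 28278 genes of the count table and among the 15916 genes that passed the filter on low counts. UBQLN1 is a shuttle protein that carries ubiquitinated proteins to the proteasome. The cells were WA26 hESCs, an established line of pluripotent cells, either wild type (WT) or UBQLN1 KO. Each of 4 groups had 2 libraries: WT cells at normal O2 without treatment, KO cells at normal O2 without treatment, KO cells cultured at 5% O2, and KO cells treated with the antioxidant N-acetylcysteine (NAC). WT cells at 5% O2 and WT cells with NAC were not analysed here, so the responses to 5% O2 and to NAC were measured in KO cells alone and cannot be compared between genotypes. KO cells were made by CRISPR-Cas9 with a pair of guides and picked as clones, and which library came from which clone is not given in the sources used here. For KO cells at 5% and normal O2 the study describes 2 biological replicates in each group, without defining them further. Nothing in the labels says whether the libraries of a group came from separate cultures. The p-values therefore measure the spread between these libraries, which may be technical.

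ATF4 is the transcription factor of the integrated stress response. Kinases that sense misfolded protein in the endoplasmic reticulum, lack of amino acids, heme shortage or double-stranded RNA phosphorylate the translation factor eIF2, which lowers translation of most mRNAs and raises translation of ATF4 mRNA through its upstream open reading frames. ATF4 protein, often as a dimer with a C/EBP protein, then turns on genes for amino acid supply, for redox balance, for ending the response and, when stress lasts, for cell death. ATF4 is therefore controlled to a large part at the level of translation, which counts of mRNA do not measure.

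The C/EBP-ATF response element is the site on which such dimers bind. Its core was searched as TGATGNAA on both strands in the RefSeq promoter windows of each gene (GRCh38.p14). A window ran from 250 bases before to 50 bases after a transcription start, and a gene counted if any of its windows matched. A match was found in 3 of 10 members and in 4.46% of 27305 genes (1217 genes). The cAMP response element TGACGTCA, which ATF and CREB proteins bind, was found in 1 of 10 members and in 614 genes (2.25%). The 4 matches are shown because they are the letters by which an ATF4 dimer or a related factor could read these promoters. Each is printed 5′ to 3′ on the gene's strand inside a window of 30 bases, and the capitals mark the match. The ASNS match lay 68 bases before a RefSeq start (chr7:97872458-97872487, minus strand). The CHAC1 match lay 209 bases before a RefSeq start (chr15:40953251-40953280, plus strand) and reads as the reverse complement of the core. The CEBPG match lay 42 bases before a RefSeq start (chr19:33374060-33374089, plus strand). The PPP1R15A match to the cAMP response element lay 58 bases before a RefSeq start (chr19:48872352-48872381, plus strand). All 4 matches lie inside the gene spans of the GENCODE v44 annotation given below, which begin further upstream. A match is a description of sequence, and binding was not measured.
ASNS: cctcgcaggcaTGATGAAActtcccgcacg
CHAC1: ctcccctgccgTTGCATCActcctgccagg
CEBPG: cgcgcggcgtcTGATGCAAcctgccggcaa
PPP1R15A: gcctctcttcgTGACGTCAgcacgccgggc

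Libraries held 31236968 to 41639350 counts assigned to genes. Values per library are given as CPM, counts scaled by TMM to one common library size. Fold changes are log2 values with a standard error (SE), and adjusted p-values come from the quasi-likelihood F test in edgeR after Benjamini-Hochberg correction over the 15916 genes. A gene was called where its adjusted p was under 0.05. UBQLN1 itself was at 42.9 ± 0.85 CPM (SD, n = 2) in untreated KO against 209 ± 17.3 CPM in WT, with a log2 fold change of -2.29 (SE 0.12, adjusted p = 2.52e-06). It was at 51.9 and 47.7 CPM in KO at 5% O2, and at 62.4 and 49.3 CPM in NAC replicates 1 and 2. UBQLN1 was called higher with NAC than in untreated KO (0.38, adjusted p = 0.0196). All 9 pluripotent stem cell markers examined had reads in every library, and their sum ran from 5581.2 to 6674.0 CPM. Single markers moved with NAC against untreated KO, where 3 of the 9 were called higher (DPPA4 0.70, ZFP42 0.61, TDGF1 0.26 in log2) and 3 lower (DNMT3B -0.97, L1TD1 -0.68, NANOG -0.31), and all 6 were also called without NAC replicate 1. After correction for transcript length and GC, TDGF1 was at -0.24. The neural progenitor marker NES was at 246 CPM in WT, 436 CPM in untreated KO, 249 CPM at 5% O2 and 127 CPM with NAC (group means), called higher in KO (0.83) and lower at 5% O2 (-0.81) and with NAC (-1.78). At 5% O2 the NES call was lost after the same correction (-0.51, adjusted p = 0.0525). NES was 1 of 6 neural markers examined, and the others did not all follow it. MAP2 was at 41.5 and 35.6 CPM at 5% O2 beside 31.7 and 32.3 CPM in untreated KO. TUBB3 was at 665 and 690 CPM at 5% O2 beside 662 and 694 CPM. With NAC it was called lower (-0.31), but not after correction. SOX1 fell at 5% O2 as NES did, from 9.16 and 11.1 CPM to 4.93 and 5.61 CPM, without a call. The part of these differences in the members' results was not tested. One library stood apart. NAC replicate 1 held 1809 counts of DCN (47.2 CPM), 148 counts of LUM (3.86 CPM) and 1114 counts of COL3A1 (29.1 CPM), which are genes of mesenchymal cells. In the other 7 libraries DCN and LUM had 0 counts, which allows up to 0.072 to 0.096 CPM (3 counts per library), and COL3A1 had 8 counts in WT replicate 2 and 0 elsewhere. Reads were present for 11 of 11 mesenchyme markers in NAC replicate 1 and for 7 to 9 of 11 in the other libraries, with a sum of 984 CPM against 550 to 652 CPM. Results that rest on this library are given with and without it. In bulk RNA, a share of other cells and a change per cell cannot be told apart.

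The members differed widely in level. Mean CPM per kilobase of transcript was 285 for ATF4 and 111 for SLC7A5, which imports large neutral amino acids such as leucine. It was 19.4 for CEBPG and 10.1 for CEBPB, basic leucine zipper proteins that can pair with ATF4, and 17.1 for CHAC1, an enzyme that degrades glutathione. TRIB3, a pseudokinase that restrains ATF4, and ATF5, a related transcription factor, were at 7.97 and 7.42. PPP1R15A, the subunit that directs a phosphatase to eIF2 and so ends the response, was at 5.41. The lowest levels were those of DDIT3 (1.99), the transcription factor CHOP that is linked to cell death under stress, and ASNS (0.598), the enzyme that makes asparagine. The ratio of the highest to the lowest of the 8 libraries was 1.28 for ATF4, 1.38 for TRIB3, 1.43 for CEBPB, 1.52 for CEBPG, 1.73 for PPP1R15A and 1.77 for ATF5. It was 2.57 for SLC7A5, 2.62 for ASNS and 3.2 for both DDIT3 and CHAC1.

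**Figure D1:**
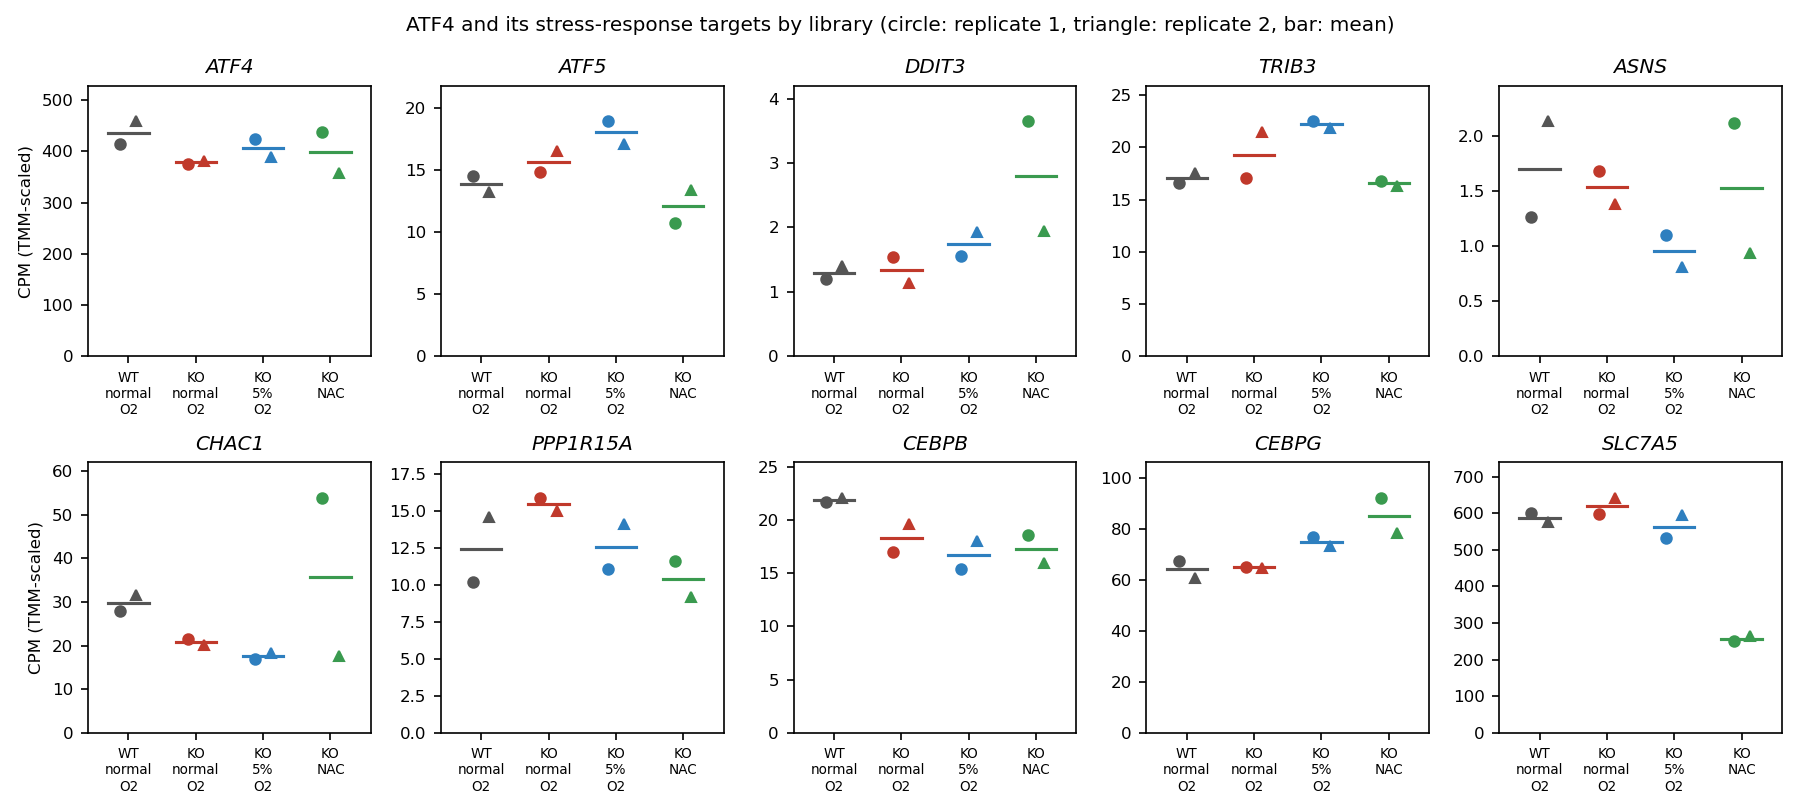
CPM (vertical axis, from 0) of the 10 members in the 8 libraries, with a circle for replicate 1, a triangle for replicate 2 and a bar for the group mean. SLC7A5 lay at 250 and 264 CPM in the NAC libraries and between 531 and 642 CPM in the other 6, and CHAC1 and DDIT3 were highest in NAC replicate 1.

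Some counts carry limits set by neighbouring or copied sequence. ASNS (hg38 chr7:97851677-97872542, minus strand in GENCODE v44) had 26 to 82 counts per library. In RefSeq the read-through gene CZ1P-ASNS covers 99.4% of the ASNS span and has its own entry in the count table with 0 to 11 counts, and at its default setting featureCounts leaves out reads that fit both genes. ASNS values are therefore uncertain. Of the 31-base words of the ATF4 transcript (chr22:39519695-39522683, plus strand), 57.4% occur elsewhere in the primary genome, and reads placed at several sites are left out by the same default. The share was 14.1% for ASNS, 6.36% for SLC7A5, 3.64% for ATF5, 1.16% for CEBPB and 0 for the other 5. Exons of another gene on the opposite strand cover 24.3% of the DDIT3 transcript (chr12:57516588-57521737, minus strand), and the overlapping genes are MARS1 and MBD6. The transcript of CEBPB (chr20:50190830-50192668, plus strand) shares 12.6% with CEBPB-AS1, and that of ATF5 (chr19:49928702-49933935, plus strand) shares 13.5%, mainly with IL4I1 and NUP62. Counting without strand cannot tell such reads apart. No overlapping exon was annotated in GENCODE v44 for TRIB3 (chr20:362835-397559, plus strand), CHAC1 (chr15:40952962-40956512, plus strand), PPP1R15A (chr19:48872212-48876059, plus strand), CEBPG (chr19:33373685-33382686, plus strand) or SLC7A5 (chr16:87830023-87869507, minus strand).

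The first comparison, KO against WT at normal O2, asks whether the stress-response genes differ when UBQLN1 is lost. None of the 10 members was called in either direction, where 1.34% of all tested genes were called higher and 0.622% lower. In the fit to all 8 libraries the count was also 0 at an unadjusted p under 0.05, and it was 0 with DESeq2. The median log2 fold change of the members was 0.03, with a range from -0.51 to 0.31, beside -0.0024 over all tested genes. The 95% intervals reached on average 0.46 log2 units to each side, and the precision differed widely between genes, with the widest interval for ASNS and the narrowest for SLC7A5. With only the 4 libraries of this comparison, the unadjusted p of the same test was under 0.05 for ATF4, CEBPB and CHAC1, all lower in KO. For ATF4 it was 0.0215 (log2 fold change -0.205, adjusted p = 0.126). For CEBPB it was 0.035 (-0.255, adjusted p = 0.165). Of these, only CHAC1 was called.

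None of the 5 transcription factors passed the test. ATF4 was at 414 and 459 CPM in the WT libraries and at 375 and 382 CPM in the KO libraries. Both KO libraries were below both WT libraries, with a log2 fold change of -0.21 (SE 0.10, 95% interval -0.43 to 0.02, adjusted p = 0.326). ATF5 was at 14.5 and 13.2 CPM in WT and at 14.8 and 16.5 CPM in KO (log2 fold change 0.18, adjusted p = 0.579). DDIT3 was at 1.2 and 1.4 CPM in WT and at 1.54 and 1.14 CPM in KO, so the groups overlapped. CEBPB was at 21.7 and 22.1 CPM in WT and at 17 and 19.6 CPM in KO, lower in both KO libraries without passing the test (log2 fold change -0.26, adjusted p = 0.364). CEBPG was at 67.4 and 60.9 CPM in WT and at 65 and 64.8 CPM in KO, and its interval of -0.21 to 0.24 leaves room for small differences in either direction.

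Of the effector genes, CHAC1 had the largest difference. It was at 27.9 and 31.5 CPM in WT and at 21.5 and 20.1 CPM in KO, with no overlap between the groups. The log2 fold change was -0.51 (SE 0.35, adjusted p = 0.477). This SE was estimated over all 8 libraries, in which the NAC libraries differ from each other at CHAC1. Fitted with the 4 libraries of this comparison, the same log2 fold change of -0.51 had an SE of 0.098 and an adjusted p of 0.0172. It was also called without NAC replicate 1 (adjusted p = 0.0134), without NAC replicate 2 (0.0108) and with no filter on low counts (0.00791). Of 16 alternatives, these 4 called it.

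The remaining effectors did not pass the test. TRIB3 was at 16.6 and 17.5 CPM in WT and at 17.1 and 21.5 CPM in KO (log2 fold change 0.18, adjusted p = 0.525). PPP1R15A was at 10.2 and 14.6 CPM in WT and at 15.9 and 15 CPM in KO (log2 fold change 0.31, adjusted p = 0.448). The WT libraries of PPP1R15A were further apart than the KO libraries. ASNS was at 1.26 and 2.13 CPM in WT and at 1.68 and 1.38 CPM in KO (log2 fold change -0.15, 95% interval -1.12 to 0.82). SLC7A5 was at 599 and 577 CPM in WT and at 597 and 642 CPM in KO, and its log2 fold change of 0.08 had an interval of -0.11 to 0.26.

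**Figure D2:**
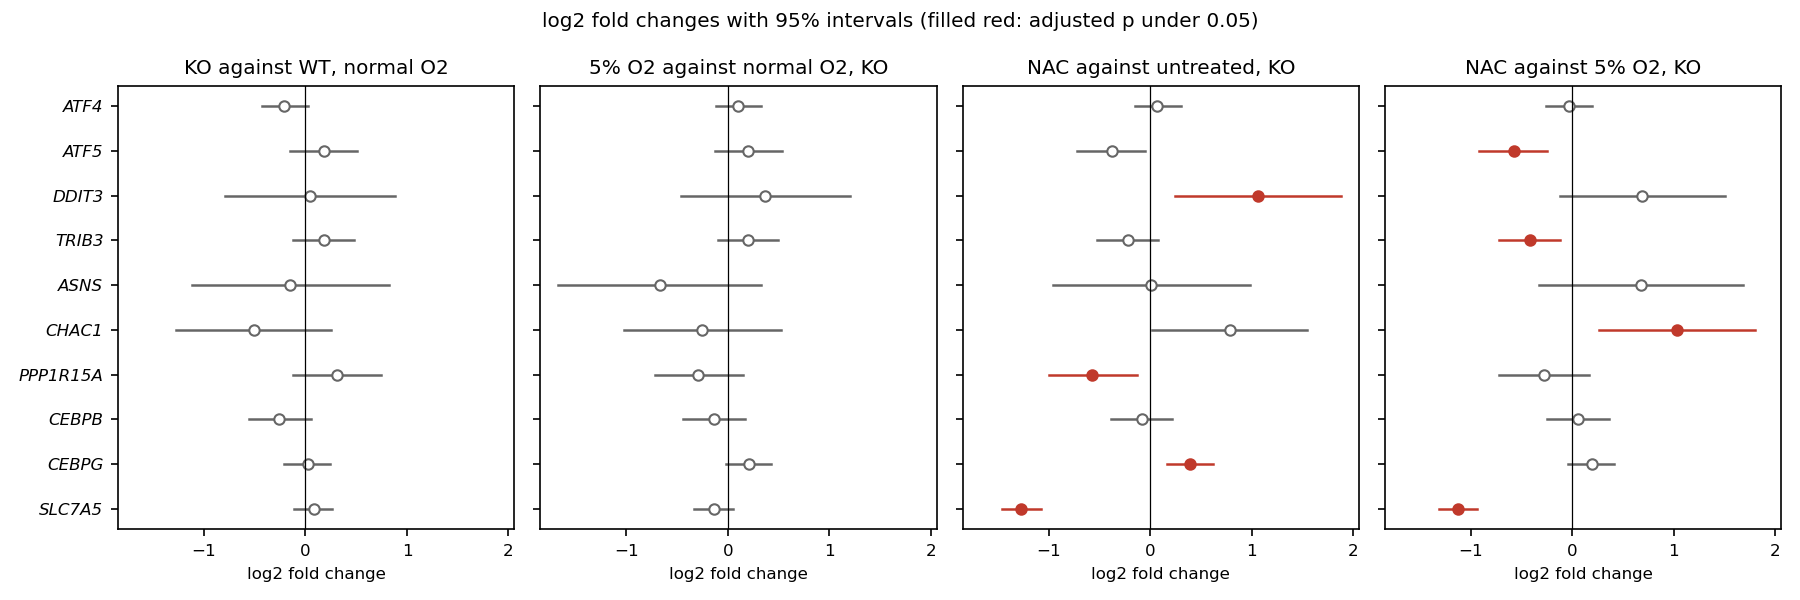
log2 fold changes (horizontal axis) of the 10 members in the 4 comparisons, with 95% intervals, and filled red points for an adjusted p under 0.05 by edgeR's quasi-likelihood test. No member was called in KO against WT or at 5% O2 against normal O2, and 4 were called in each of the comparisons with NAC.

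The second comparison, KO cells treated with NAC against untreated KO cells, asks how the transcriptome of KO cells differs with the antioxidant. In the study's scheme NAC was given over repeated passages before RNA-seq, with DMSO as the control. The labels give no vehicle, passage number or sequencing run for either group, and the sample titles give no O2 level for the NAC group. Differences in these cannot be told apart from an effect of NAC. SLC7A5 was lower by 2.41-fold, PPP1R15A was lower, and CEBPG and DDIT3 were higher, while ATF4 mRNA was at 438 and 358 CPM with NAC beside 375 and 382 CPM without. Of the members, 2 were called higher, where 23.8% of all tested genes were, and 2 were called lower, where 20.8% were. In this fit the members were thus called about as often as other genes. Their median log2 fold change was -0.04 beside 0.023 over all tested genes, and 5 of 10 were above 0. Without NAC replicate 1, described above, their median was -0.24 beside 0.0137. After correction for transcript length and GC, 0 members were called higher and 1 lower, with no share over all genes computed, and their median was 0.02. NAC against untreated KO, KO against WT and 5% O2 against normal O2 all share the untreated KO libraries.

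SLC7A5 had 250 and 264 CPM in the NAC libraries and 597 and 642 CPM in the untreated KO libraries. Both NAC libraries lay close together and far below the other 6 libraries analysed. The log2 fold change was -1.27 (SE 0.09, 95% interval -1.46 to -1.08, adjusted p = 1.28e-05). It was called in 16 of 16 alternative settings, with log2 fold changes from -1.32 to -0.64. Across 15281 genes the NAC response moved with transcript GC content (Spearman's rho -0.49) and length (-0.25), a description across genes, which are not independent replicates. The SLC7A5 transcript is 4556 bases long with 61.19% GC. After correction for transcript length and GC, its log2 fold change was -0.64 (adjusted p = 0.000258), and it was then the member with the only call. Without NAC replicate 1 it was -1.23 (adjusted p = 6.91e-06). SLC3A2, the heavy chain with which SLC7A5 forms the transporter, was named after its values were seen. It was at 568 and 671 CPM with NAC and at 514 and 562 CPM without (log2 fold change 0.20, 95% interval -0.02 to 0.43, adjusted p = 0.129). It was called higher after correction for transcript length and GC (0.33, adjusted p = 0.0173) and without NAC replicate 1 (0.32, adjusted p = 0.0246).

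PPP1R15A, CEBPG and DDIT3 passed the test with smaller margins. PPP1R15A was at 11.6 and 9.19 CPM with NAC and at 15.9 and 15 CPM without, and the groups did not overlap. Its log2 fold change was -0.57 (SE 0.20, adjusted p = 0.0373). CEBPG was at 92.3 and 78.3 CPM with NAC and at 65 and 64.8 CPM without, higher in both NAC libraries than in the other 6 libraries analysed. The log2 fold change of CEBPG was 0.39 (SE 0.10, adjusted p = 0.00831). DDIT3 was at 3.65 and 1.94 CPM with NAC, from 140 and 58 counts, and at 1.54 and 1.14 CPM without. Its log2 fold change was 1.06 (SE 0.37, adjusted p = 0.0362). After correction for transcript length and GC these 3 calls were lost, with log2 fold changes of -0.31 for PPP1R15A, 0.085 for CEBPG and 0.75 for DDIT3. Of 16 alternatives, PPP1R15A and CEBPG were each called in 11 and DDIT3 in 6.

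CHAC1 and DDIT3 were high in the NAC library that carried mesenchyme reads. CHAC1 was at 53.9 CPM in NAC replicate 1 and at 17.5 CPM in NAC replicate 2, which straddled the untreated 21.5 and 20.1 CPM. With both NAC libraries its log2 fold change was 0.79 (SE 0.35, adjusted p = 0.0882). Without NAC replicate 1 it was -0.25 (adjusted p = 0.181), and without NAC replicate 2 it was 1.37 (adjusted p = 2.53e-06). DDIT3 gave 0.53 without NAC replicate 1 (adjusted p = 0.328) and 1.44 without NAC replicate 2 (adjusted p = 0.00417). CEBPG gave 0.27 without NAC replicate 1 (adjusted p = 0.0551). DCN, LUM and COL3A1 were high in the same library and at or near 0 in all others, and their part in these results was not tested.

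**Figure D3:**
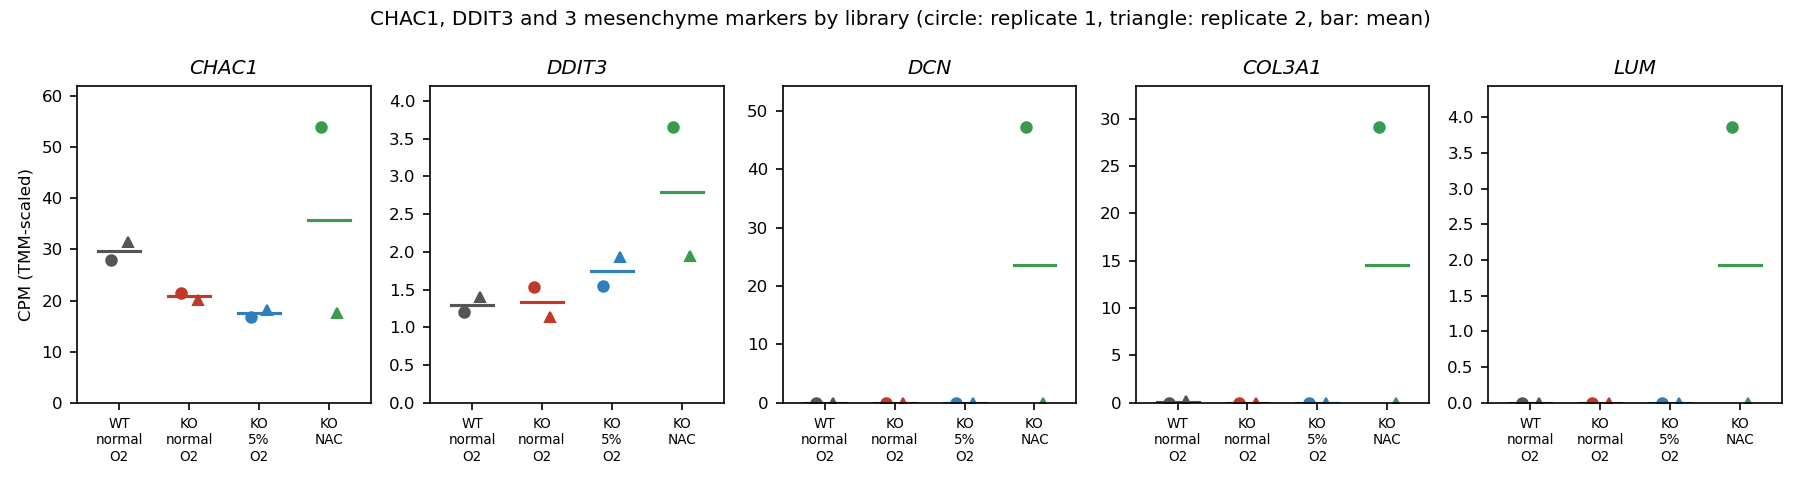
CPM (vertical axis, from 0) of CHAC1, DDIT3 and the mesenchyme markers DCN, COL3A1 and LUM in the 8 libraries, with circles for replicate 1, triangles for replicate 2 and bars for group means. NAC replicate 1 was the highest library for all 5 genes, at 53.9 CPM for CHAC1 and 47.2 CPM for DCN.

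The other members did not pass the test with NAC. ATF5 was at 10.7 and 13.4 CPM with NAC against 14.8 and 16.5 CPM without, lower in both NAC libraries, with a log2 fold change of -0.38 (adjusted p = 0.0615). TRIB3 was at 16.8 and 16.3 CPM with NAC against 17.1 and 21.5 CPM without (log2 fold change -0.22, adjusted p = 0.218), and after the length and GC correction it was 0.12. CEBPB was at 18.6 and 16 CPM with NAC against 17 and 19.6 CPM, with overlapping groups. ASNS was at 2.11 and 0.935 CPM with NAC against 1.68 and 1.38 CPM, where the NAC libraries lay on either side of the untreated ones. For ATF4 itself the log2 fold change was 0.07 (95% interval -0.15 to 0.30, adjusted p = 0.614).

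**Figure D4:**
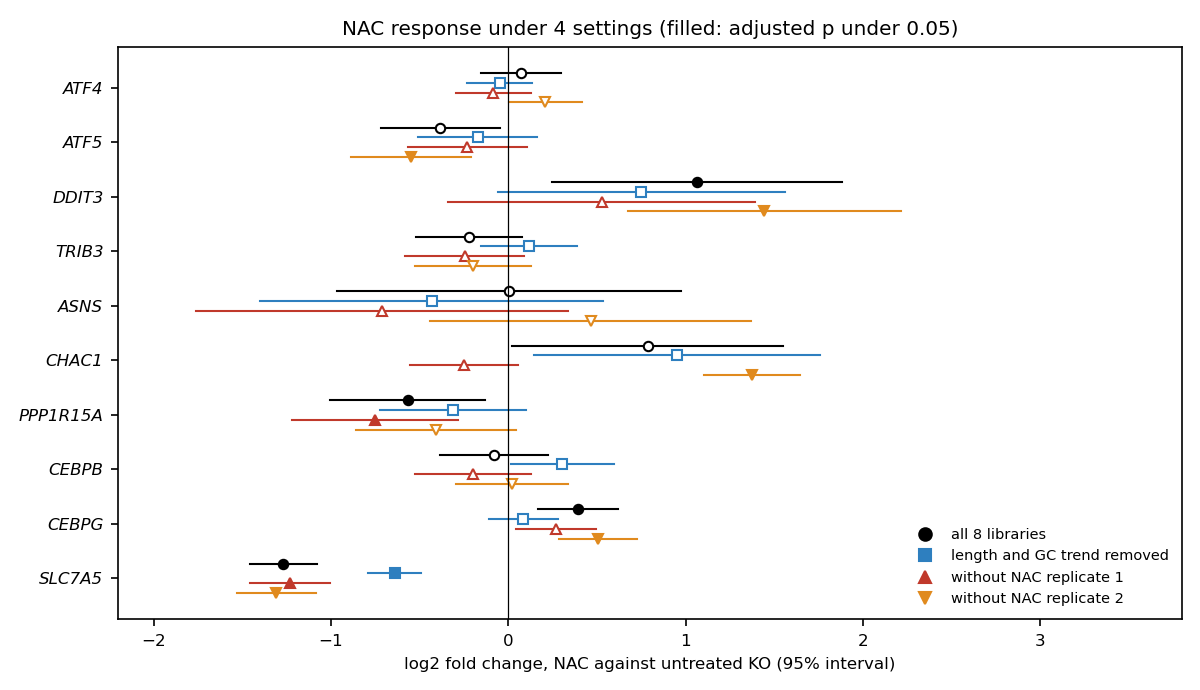
log2 fold changes with 95% intervals (horizontal axis) of the 10 members in NAC against untreated KO under 4 settings, all 8 libraries (black circles), corrected for length and GC (blue squares), without NAC replicate 1 (red triangles) and without NAC replicate 2 (orange inverted triangles), filled where the adjusted p was under 0.05. SLC7A5 was below 0 and called under all 4 settings, from -1.31 to -0.64, while CHAC1 lay at -0.25 without NAC replicate 1 and at 1.37 without NAC replicate 2.

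The third comparison, KO cells at 5% O2 against KO cells at normal O2, asks how lower oxygen changes KO cells. No member was called, where 3.68% of all tested genes were called higher and 4.13% lower. In the fit to all 8 libraries the count was 0 at an unadjusted p under 0.05, and it was 0 with DESeq2. The members' median log2 fold change was -0.02, with a range from -0.67 to 0.37, beside -0.00025 over all tested genes. ATF4 was at 424 and 389 CPM at 5% O2 against 375 and 382 CPM at normal O2 (log2 fold change 0.10, 95% interval -0.12 to 0.33). CEBPG was at 76.7 and 73.4 CPM against 65 and 64.8 CPM, and its adjusted p of 0.235 was the smallest of the 10 (log2 fold change 0.21). Both libraries at 5% O2 were above both at normal O2 for ATF4 and CEBPG. With only the libraries compared, the unadjusted p of the same test was under 0.05 for CEBPG and CHAC1, and neither was called. It was 0.0226 for CEBPG (log2 fold change 0.206, adjusted p = 0.0872) and 0.0427 for CHAC1 (-0.250, adjusted p = 0.132).

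ATF5 was at 18.9 and 17.1 CPM at 5% O2 (log2 fold change 0.20), and TRIB3 was at 22.5 and 21.9 CPM (0.20). DDIT3 was at 1.55 and 1.93 CPM (0.37). CHAC1 was at 16.8 and 18.2 CPM (-0.25), and PPP1R15A was at 11.1 and 14.1 CPM (-0.29). Both libraries at 5% O2 lay above both at normal O2 for ATF5, TRIB3 and DDIT3, and below both for CHAC1, PPP1R15A, SLC7A5 and ASNS. In the fit to all 8 libraries each of these 95% intervals included 0, and for DDIT3 the nearest libraries were at 1.55 and 1.54 CPM. With only the libraries compared, the interval of CHAC1 was -0.491 to -0.010. Of the 10 members 9 did not overlap at 5% O2. The share of all tested genes without overlap was not computed for any comparison, so this count has nothing to be set against. CEBPB was at 15.4 and 18 CPM (-0.14), SLC7A5 at 531 and 594 CPM (-0.14) and ASNS at 1.1 and 0.81 CPM (-0.67, 95% interval -1.67 to 0.33). The interval of ASNS was the widest of the 10.

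In KO cells with NAC against KO cells at 5% O2, 1 member was called higher, where 15.5% of all tested genes were, and 3 were called lower, where 13.6% were. SLC7A5 was 2.19-fold lower with NAC (log2 fold change -1.13, SE 0.09, adjusted p = 6.05e-05) and was called in 16 of 16 alternatives, from -1.21 to -0.79. ATF5 had a log2 fold change of -0.58 (SE 0.15, adjusted p = 0.0144). TRIB3, with NAC libraries at 16.8 and 16.3 CPM against 22.5 and 21.9 CPM, had one of -0.42 (SE 0.14, adjusted p = 0.0377). CHAC1 was called higher (1.03, SE 0.35, adjusted p = 0.0457) although NAC replicate 2 lay within the libraries at 5% O2, and without NAC replicate 1 its log2 fold change was -0.0015. After correction for transcript length and GC, SLC7A5 (-0.79) was called and ATF5 (-0.47, adjusted p = 0.0586), TRIB3 (-0.24) and CHAC1 (1.12, adjusted p = 0.0632) were not. Without NAC replicate 1 the values were -0.43 for ATF5 (adjusted p = 0.0556) and -0.44 for TRIB3 (adjusted p = 0.0509).

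The 10 members did not rise and fall as a block over the 8 libraries. Among their 45 pairs, Pearson's r of log2 CPM was above 0 in 23 and below 0 in 22, with a median of 0.03. The highest values were those of DDIT3 with CEBPG (0.87) and of ATF5 with TRIB3 (0.82), and the lowest those of ATF5 with CHAC1 (-0.84), CEBPG with SLC7A5 (-0.82) and DDIT3 with SLC7A5 (-0.81). These are descriptions over 8 libraries that include the group differences and NAC replicate 1. The genes outside the members whose log2 CPM was most like the members' mean were RNF125 (r = 0.951), RN7SL3 (0.951), TKT (0.926), POLR3D (0.922) and MTMR11 (0.921), over the same 8 libraries.

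Upstream of ATF4, the 19 genes of the eIF2 kinases and of eIF2 control had no call in KO against WT. With NAC 12 were called higher, where 23.8% of all tested genes were, and 1 lower, where 20.8% were. The counts were 10 higher and 2 lower without NAC replicate 1, and 7 higher and 0 lower after correction for transcript length and GC. The largest rises with NAC were those of OMA1 (log2 fold change 1.25, adjusted p = 3.85e-05), a mitochondrial protease that relays mitochondrial stress to the eIF2 kinase HRI, NCK1 (1.03) and EIF2B3 (0.89), a subunit of the eIF2 exchange factor. GCN1, a co-activator of the amino acid sensing kinase, fell by 0.80 on the log2 scale. After the length and GC correction, NCK1 (0.48) and EIF2B3 (0.64) were called, while OMA1 (0.42, adjusted p = 0.0519) and GCN1 (-0.02) were not. The shares over all tested genes hold, here and in the lists below, for the fit to all 8 libraries without correction. They were 1.34% higher and 0.622% lower in KO against WT, and 3.68% higher and 4.13% lower at 5% O2. They were not computed for other settings. Counts without NAC replicate 1 or after correction, here and in the lists below, therefore have no such share beside them. Of the kinases, which were named after their values were seen, EIF2AK1 (HRI) was at 168 ± 13.8 CPM with NAC and 143 ± 2.2 CPM without (log2 fold change 0.23, adjusted p = 0.0498), and 0.14 without NAC replicate 1 (adjusted p = 0.245). EIF2AK2 (PKR) had a log2 fold change of -0.18 (adjusted p = 0.311), and of -0.36 without NAC replicate 1 (adjusted p = 0.0497). EIF2AK3 (PERK) had one of 0.21 (adjusted p = 0.367) and EIF2AK4 (GCN2) one of -0.01 (adjusted p = 0.937). At 5% O2 OMA1 was called, higher by 0.58, but not after the length and GC correction (0.27, adjusted p = 0.373), and 4 genes of this list were called higher without NAC replicate 1.

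The 20 genes of amino acid transport and synthesis had 1 call in KO against WT. SLC7A3, a carrier of cationic amino acids, was at 143 and 146 CPM in WT and at 88.4 and 88.2 CPM in KO, a log2 fold change of -0.71 (SE 0.09, adjusted p = 0.00169). MTHFD2 of the mitochondrial folate cycle was called lower without NAC replicate 1 (-0.39, adjusted p = 0.00838). Both libraries at 5% O2, at 126 and 115 CPM, and both with NAC, at 124 and 137 CPM, had SLC7A3 levels between those of untreated KO and WT. The comparisons of untreated KO with WT, with 5% O2 and with NAC share the untreated KO libraries, so they are not independent. SLC7A3 was called higher at 5% O2 (0.45, adjusted p = 0.017), also after the length and GC correction (0.44). PSAT1 of serine synthesis was called there too (0.39, adjusted p = 0.0221), but not after that correction (0.20, adjusted p = 0.199). At 5% O2, 4 genes of this list were higher and 1 lower without NAC replicate 1.

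With NAC 8 of these 20 genes were called higher, where 23.8% of all tested genes were, and 5 lower, where 20.8% were. MTHFD2 rose by 0.77, and by 0.46 without NAC replicate 1, PSAT1 by 0.70, and ALDH18A1 of proline synthesis by 0.64. ALDH1L2, another mitochondrial folate enzyme, fell by 1.01, and the amino acid carriers SLC7A1 and SLC6A9 fell by 0.57 and 0.55. After the length and GC correction MTHFD2 (0.51), ALDH18A1 (0.70) and ALDH1L2 (-0.98) were called, while PSAT1 (0.22, adjusted p = 0.0512), SLC7A1 (0.01) and SLC6A9 (-0.12) were not. The 6 genes higher after that correction include SLC3A2 and SLC1A5 (0.44), which were not called without it.

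Of 13 genes of the cytosolic aminoacyl-tRNA synthetase list, which also holds the tRNA exporter XPOT, none was called in KO against WT. MARS1 was called lower there without NAC replicate 1 (-0.29, adjusted p = 0.0285). With NAC 5 were called higher, where 23.8% of all tested genes were, and 2 lower, where 20.8% were. The list's median log2 fold change was 0.09, and 0.04 without NAC replicate 1. IARS1 (0.49), LARS1 (0.35) and SARS1 (0.34) rose with NAC, and AARS1 and CARS1 each fell by 0.39. After the length and GC correction IARS1 (0.38) and SARS1 (0.30) were called, while LARS1 (0.17), AARS1 (-0.14) and CARS1 (-0.27) were not. Other genes were called after that correction, MARS1 higher (0.24) and NARS1 (-0.43) and GARS1 (-0.28) lower. At 5% O2 CARS1 fell by 0.61 (adjusted p = 0.0295), with a corrected value of -0.56 that was not called (adjusted p = 0.0869).

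Among the other stress-response targets, 15 of 17 were tested, and none was called in KO against WT. Without NAC replicate 1, DDIT4 (-0.74, adjusted p = 0.000207) and VLDLR (-1.19, adjusted p = 1.73e-05) were called lower in KO, at the same log2 fold changes as with it. DDIT4, an inhibitor of mTORC1 that is also induced by low oxygen, was at 27.9 and 30.2 CPM in WT and at 17.3 and 17.4 CPM in KO. VLDLR, a lipoprotein receptor, was at 26.5 and 25.3 CPM in WT and at 11.2 and 11.5 CPM in KO. At 5% O2 DDIT4 was at 186 and 189 CPM, a log2 fold change of 3.43 (SE 0.71, adjusted p = 0.0193), and it was the 1 gene of this list called there. Without NAC replicate 1, 5 were higher and 2 lower at 5% O2, among them VLDLR (1.16, adjusted p = 2.13e-05) and STC2 (0.67, adjusted p = 0.0012).

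With NAC 4 of these 15 genes were called higher, where 23.8% of all tested genes were, and 1 lower, where 20.8% were. DDIT4 was at 163 CPM in NAC replicate 1 and at 15.2 CPM in NAC replicate 2, and VLDLR was at 43.1 and 12.2 CPM. Their log2 fold changes of 2.36 and 1.29 became -0.20 and 0.10 without NAC replicate 1, and neither was then called. HERPUD1, a protein of endoplasmic reticulum degradation, rose by 0.43 (adjusted p = 0.00601), and by 0.32 after the length and GC correction (adjusted p = 0.031). CEBPA fell by 0.51 (adjusted p = 0.0125), but after that correction its adjusted p was 0.998 and no fall was left. The counts were 3 higher and 1 lower after that correction, and 1 higher and 4 lower without NAC replicate 1.

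The 20 genes of the ATF6 and XBP1 branches, the parts of the unfolded protein response that do not use eIF2, had 1 call in KO against WT. The list holds chaperones and other genes, among them XBP1 and ATF6. DERL3 was at 1.23 ± 0.629 CPM in KO against 0.116 ± 0.0905 CPM in WT (log2 fold change 3.42, adjusted p = 0.0147). The WT libraries, at 0.18 and 0.0519 CPM, were near the 0.092 and 0.0797 CPM that 3 counts give there. The KO libraries were at 0.786 and 1.68 CPM. With NAC 10 were called higher, where 23.8% of all tested genes were, and 2 lower, where 20.8% were. DNAJB9 rose by 1.11, SEL1L by 0.70 and the protein disulfide isomerase PDIA3 by 0.59, and SYVN1 and CRELD2 fell by 0.49 and 0.36. After the length and GC correction DNAJB9 (0.36), SEL1L (0.63) and PDIA3 (0.40) were called, while SYVN1 (-0.13) and CRELD2 (-0.24) were not. The corrected counts were 8 higher and 1 lower, where the lower gene was MANF (-0.38), and without NAC replicate 1 the counts were 9 and 1. At 5% O2 HSP90B1 (0.33) and PDIA3 (0.29) rose, but neither was called after correction (0.18, adjusted p = 0.251, and 0.24, adjusted p = 0.0963), and 6 were called higher without NAC replicate 1. The median log2 fold changes with NAC were 0.27 for this list and 0.32 for eIF2 control, beside -0.04 for the 10 members and 0.023 for all tested genes.

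**Figure D5:**
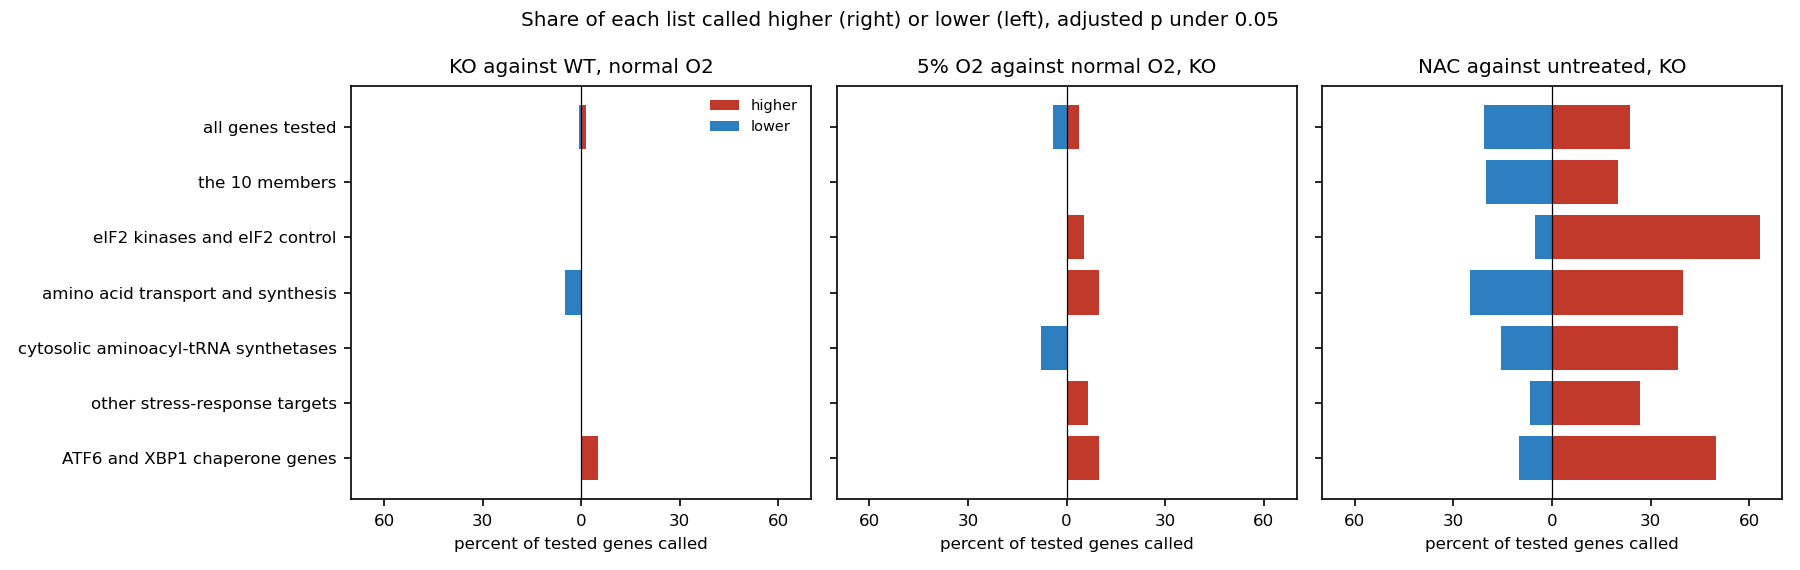
Percent of tested genes called higher (red, to the right) and lower (blue, to the left) in KO against WT, at 5% O2 and with NAC, for all tested genes, for the 10 members and for the other pathway lists. With NAC 23.8% of all genes were called higher and 20.8% lower, and 2 of the 10 members were called in each direction.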

How the data were processed

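RNA was prepared with the Illumina TruSeq kit. The submitters' processing notes name hg38, HISAT2, featureCounts and FastQC 0.11.9. The authors deposited whole-number read counts for each gene, not normalized, and their gene annotation is not given in the sources used here. Genes with low counts were dropped by filterByExpr (at least 10 counts). The quasi-likelihood F test of edgeR 4.0.16 (R 4.3.3) was run after TMM scaling on all 8 libraries, with a coefficient for each group and 4 residual degrees of freedom. Libraries of a group differed beyond sampling noise (chi-square per degree of freedom 9.8 to 32.3). The biological coefficient of variation was 13.7%. Group values are means ± SD over 2 libraries, and limits for 0 counts cover counting error alone. Alternatives were upper quartile or RLE scaling, DESeq2 1.42.0, no filter, the study's call (log2 fold change beyond 1 in size with a raw p under 0.05), only the libraries compared, a replicate block, correction for transcript length and GC by a smooth offset (mgcv 1.9.3, 15281 genes) and leaving out each library. Scripts were tested on simulated data. The members and lists were chosen with earlier results of these data known. All members, the up to 3 largest calls per list and direction and the 5 genes most like the members were named. Markers, kinases and other genes named where a further setting changed their call were chosen after their values were seen. RefSeq promoters were matched for 10 of 10 members. Culture times at 5% O2 differ within the study's text and are not used.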

Additional observations from a re-analysis of the deposited data

How the results depend on the processing

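Among the members' log2 fold changes under 16 alternatives, 544 kept direction and side of the threshold, 46 lost the call, 11 gained one and 39 changed sign, and 1 of the 39 was of a called value (CHAC1, NAC against 5% O2). SLC7A5 with NAC kept its call in all. The count of members lower in KO against WT was 1 in place of 0 with no filter and with only the libraries compared, and 0 to 1 when leaving out each library. With NAC against untreated KO, the count higher was 1 with only the libraries compared and by the study's call and 0 with the correction for length and GC, with or without the block, and 0 to 3 when leaving out each library. The count lower there was 1 with this correction, with or without the block, and by the study's call, and 1 to 2 when leaving out each library. With NAC against 5% O2, the count higher was 0 with DESeq2, RLE, upper quartile, only the libraries compared, the replicate block and the length and GC correction, with or without the block, and 0 to 3 when leaving out each library. The count lower was 1 with this correction, with or without the block, and by the study's call, and 1 to 3 when leaving out each library.

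Across genes, deviations of same-numbered libraries correlated between -0.0226 and 0.0816, so no large effect shared by replicate number was seen. This cannot tell whether same-numbered libraries share a clone or culture. With the replicate block, ASNS with NAC was at -0.03, and the count of members called higher in NAC against 5% O2 went from 1 to 0. Sign changes with the length and GC correction, and with the block and that correction, were ATF4 -0.048 and -0.051, TRIB3 0.12 and 0.12, ASNS -0.43 and -0.46 and CEBPB 0.31 and 0.30 in NAC against untreated KO, CEBPG -0.027 and -0.029 in NAC against 5% O2, CEBPB 0.03 and 0.029 and SLC7A5 0.15 and 0.15 at 5% O2, and SLC7A5 -0.068 and -0.068 in KO against WT. ASNS with NAC was at -0.025 with DESeq2, -0.023 with RLE, -0.013 with upper quartile and -0.018 with only the libraries compared. CEBPG in KO against WT was at -0.0088 with upper quartile.

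When leaving out each library, the ranges that crossed 0 were, in NAC against untreated KO, ATF4 -0.085 to 0.21, ASNS -0.71 to 0.47, CEBPB -0.20 to 0.022 and CHAC1 -0.25 to 1.37. In NAC against 5% O2 they were ATF4 -0.19 to 0.11, ASNS -0.044 to 1.13, CEBPB -0.058 to 0.17 and CHAC1 -0.0015 to 1.62. In KO against WT they were DDIT3 -0.19 to 0.25, ASNS -0.47 to 0.28 and CEBPG -0.054 to 0.093. The causes were not tested. With 2 libraries per group and 26 to 82 counts for ASNS and 40 to 140 for DDIT3, differences in these genes were the least precise.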
